A study of Mus musculus with 6 samples.

Results

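GABAergic interneuron markers are represented here by Gad1, Gad2, Slc32a1, Pvalb, Sst, Vip, Npy, Cck and Calb2, 9 of 18193 genes named on the array. Every probe set annotated to exactly 1 gene, where that gene is one of these, was taken, which gave 14 of the 45037 probe sets that are not manufacturer controls. The data are whole-brain expression profiles of 3 heterozygous periphilin knockout mice (periphilin+/-) and 3 wild-type littermates on a C57BL/6 background. All mice were male and 2 months old, untreated as far as the labels say, and each brain was hybridised to its own Affymetrix array. Pphln1 codes for periphilin, part of the HUSH complex that keeps retroelements and a number of genes silent by way of a repressive histone mark. The labels do not say where in Pphln1 the disruption lies.

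GABAergic interneurons are the local inhibitory neurons of the forebrain. They make the transmitter GABA from glutamate with glutamate decarboxylase and load it into vesicles with a dedicated transporter, and they fall into classes that are told apart by calcium-binding proteins and by neuropeptides. None of the 9 genes is used by interneurons alone. Purkinje cells and striatal projection neurons also make GABA, Pvalb and Calb2 are also transcribed in the cerebellum, Cck in many excitatory cortical neurons, and Sst, Npy and Vip in other brain nuclei.

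The values are probe-set intensities on a linear scale, as deposited. Array medians lay between 31.2 and 34.5, and log2 values of any pair of arrays correlated at 0.978 to 0.984. The targeted gene did not separate the genotypes at its brighter probe set, 1434822_at, with 353, 269 and 338 in heterozygous brains and 295, 290.2 and 314 in wild-type brains. At the dimmer 1435766_at it measured 30.6, 44.4 and 36.6 against 63.2, 47.3 and 46.3, which on the log2 scale is -0.36 (SE 0.18, limma adjusted p = 0.956). Array 3'/5' ratios of the Gapdh control probe sets were 0.747, 0.748 and 0.755 in heterozygous and 0.713, 0.731 and 0.729 in wild-type brains. The genotypes did not overlap in this ratio. Those of beta-actin ran from 1.60 to 1.72 and overlapped. The part of RNA quality or labelling in the marker values was not tested.

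Transcripts of all 9 marker genes measured well above the dim limit, a signal of 18.4, at the brightest probe set, and none differed between genotypes past the test. Of the 14 probe sets, 11 passed the filter on dim signal and were tested, at least 1 for each gene. With limma and Benjamini-Hochberg adjustment over the 27022 probe sets tested, 0 of the 11 passed the threshold of 0.05, where 0.0148% of all tested probe sets did. At an unadjusted limma p below 0.05 the count was also 0 of 11, against 4.83% of all tested probe sets. It became 1 of 11 without heterozygous 1 (Vip), without heterozygous 3 (Cck) and without wild type 2 (Slc32a1), none of which passed after adjustment. The intensities of the genotypes overlapped at each of the 11, while they were apart for 10.2% of tested probe sets. By the brightest tested probe set of each gene, 5 genes were higher and 4 lower in sign in heterozygous brains. Their median log2 difference was 0.034, against 0.0067 over 13024 genes tested, and the median size of difference was 0.094 for the 9 genes and 0.093 for all genes. In whole-brain RNA, fewer cells of a class and less transcript per cell cannot be told apart.

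**Figure D1:**
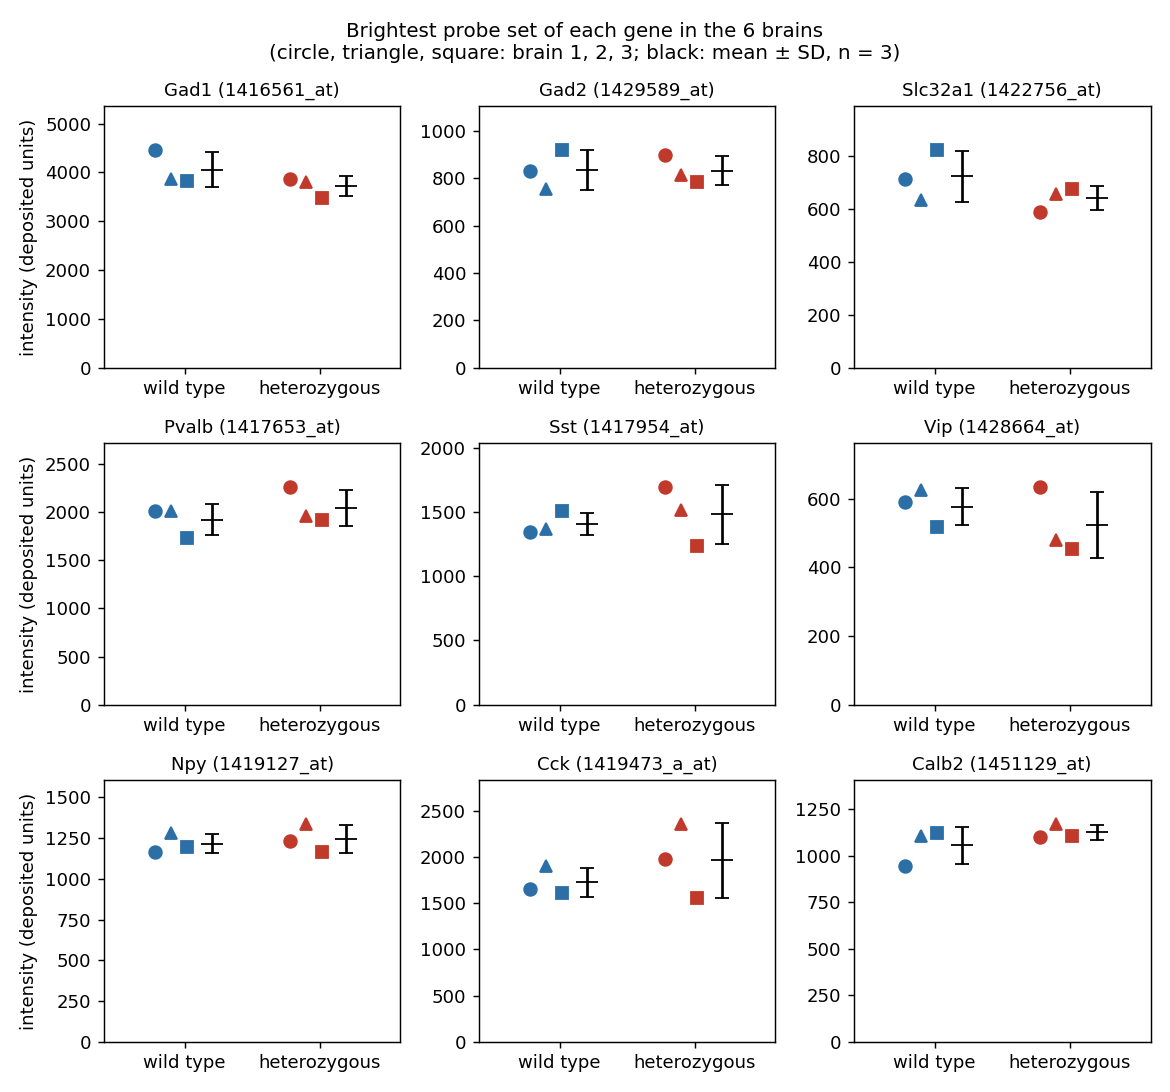
Deposited intensity (vertical axis, linear and starting at 0) of the brightest probe set of each of the 9 genes in 3 wild-type (blue) and 3 heterozygous (red) brains, with mean ± SD in black. The genotypes overlap in every panel, and the widest spread is that of Cck in heterozygous brains, from 1556 to 2363.

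Glutamate decarboxylase came first. Gad1 encodes the GAD67 enzyme, which makes most of the brain's GABA, and lies on chromosome 2 at 70561303 to 70602014 (GRCm38.p6). Its brighter probe set, 1416561_at, measured 3856, 3808 and 3484 in heterozygous brains and 4463, 3874 and 3824 in wild-type brains. The heterozygous values lay toward the lower end, with wild type 1 the highest of the 6 and heterozygous 3 the lowest, but heterozygous 1 exceeded wild type 3. The means were 3716 ± 202 and 4054 ± 355 (SD, n = 3 each), a log2 difference of -0.12 (SE 0.089, 95% confidence interval -0.32 to 0.074, limma adjusted p = 0.956), and the two-sided exact permutation p was 0.2. The second Gad1 probe set, 1416562_at, read 1784, 1467 and 1575 against 1539.9, 1473 and 1655. Here heterozygous 1 was highest and heterozygous 2 lowest, and the log2 difference came to 0.045 (SE 0.093, limma adjusted p = 0.975), so the probe sets of Gad1 differed in sign.

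Gad2 encodes GAD65, the isoform concentrated at nerve terminals, and lies on the same chromosome at 22621015 to 22693877. At 1429589_at it measured 900.2, 812 and 782 in heterozygous brains and 829.8, 754 and 920.1 in wild-type brains. Highest and lowest values both came from wild-type brains, and the means of 831 ± 61.4 and 835 ± 83.3 gave a log2 difference of -0.0031 (SE 0.097, 95% interval -0.22 to 0.21, limma adjusted p = 0.998). A dimmer Gad2 probe set, 1421978_at, ranged from 62.9 to 95.2 over the 6 brains and had the least precise difference of the 11, at -0.085 (SE 0.17).

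Slc32a1 encodes the vesicular transporter that fills synaptic vesicles with GABA and glycine, and it lies on chromosome 2 at 158607260 to 158615747. Probe set 1422756_at read 591, 659 and 677 in heterozygous brains and 716, 634 and 825 in wild-type brains. Wild type 3 and wild type 1 were the highest, and wild type 2 fell among the heterozygous values. The log2 difference of -0.17 (SE 0.11, 95% interval -0.40 to 0.070) had a limma adjusted p of 0.956 and an exact permutation p of 0.3. It was -0.26 without wild type 2 and -0.070 without wild type 3. Another 3 probe sets of Slc32a1, 1456457_at, 1447574_s_at and 1447573_at, were dim, with values from 0.813 to 26.2, and were not tested. They are the only probe sets of the 14 that failed the filter.

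Among calcium-binding proteins, Pvalb marks the fast-spiking basket and chandelier cells, and Calb2, which encodes calretinin, marks a set of mostly bipolar cells. Pvalb lies on chromosome 15 at 78191112 to 78206400, on the chromosome of Pphln1 and 15.2 Mb from it. It measured 2261, 1955 and 1920.5 in heterozygous brains and 2015, 2009.5 and 1732 in wild-type brains. Heterozygous 1 was the highest brain and wild type 3 the lowest, and the other four lay close together between them. The means of 2045 ± 188 and 1919 ± 162 gave a log2 difference of 0.091 (SE 0.096, 95% interval -0.12 to 0.30, limma adjusted p = 0.961).

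Calb2, on chromosome 8 at 110142526 to 110168212, read 1100.3, 1172 and 1107 in heterozygous brains and 943, 1109 and 1120.1 in wild-type brains. Wild type 1 stood lowest and the remaining brains were within a narrow band. Its log2 difference was 0.094 (SE 0.090, 95% interval -0.10 to 0.29, limma adjusted p = 0.961).

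The neuropeptide genes Sst, Npy, Vip and Cck encode precursors that are cut into small secreted peptides. Transcription of several such genes is known to respond to cAMP through an element near the start of transcription, whose half-site is TGACG and whose full palindrome is TGACGTCA. RefSeq promoter windows (GRCm38.p6, 250 bases before to 50 bases after a transcription start of the gene) were found for 8 of the 9 genes, in 9 windows because Pvalb has a pair. The windows of Gad1, Gad2, Slc32a1 and Sst and a Pvalb window lie wholly inside the gene spans given here. Their starts are therefore not the outer ends of those spans. Searched on both strands, the half-site (TGACG or CGTCA) occurred in windows of 4 genes, Gad2, Sst, Vip and Cck, and in 20.8% of 32851 windows of all genes. The full palindrome, which contains the half-site on each strand, occurred in Sst alone of the 8, beginning 48 bases before the start, and in 1.79% of all windows. The 3 peptide gene windows with a half-site are given below in lower case on the gene's strand, 5′ to 3′, with the half-site, or the palindrome for Sst, in capitals, to show how its form and place differ between them.
Sst (chr16:23890795-23891094, minus strand): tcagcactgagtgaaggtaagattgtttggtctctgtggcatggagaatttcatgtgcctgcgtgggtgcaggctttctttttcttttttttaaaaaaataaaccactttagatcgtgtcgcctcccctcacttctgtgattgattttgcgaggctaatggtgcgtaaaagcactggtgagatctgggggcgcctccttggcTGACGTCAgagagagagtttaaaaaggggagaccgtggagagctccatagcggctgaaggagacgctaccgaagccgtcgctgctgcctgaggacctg
Vip (chr10:5638968-5639267, plus strand): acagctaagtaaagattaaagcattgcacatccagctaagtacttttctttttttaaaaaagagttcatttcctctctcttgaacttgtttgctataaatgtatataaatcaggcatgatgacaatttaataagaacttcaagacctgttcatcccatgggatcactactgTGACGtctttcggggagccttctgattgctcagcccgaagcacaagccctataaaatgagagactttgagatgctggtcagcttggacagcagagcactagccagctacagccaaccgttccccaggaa
Cck (chr9:121495645-121495944, minus strand): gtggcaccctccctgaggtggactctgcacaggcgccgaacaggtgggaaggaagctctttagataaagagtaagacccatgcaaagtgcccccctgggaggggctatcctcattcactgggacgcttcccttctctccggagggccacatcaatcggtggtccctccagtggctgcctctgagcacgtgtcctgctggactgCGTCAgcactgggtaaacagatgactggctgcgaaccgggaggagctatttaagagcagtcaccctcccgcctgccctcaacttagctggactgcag
The Vip half-site begins 79 bases and the Cck half-site 47 bases before the start. The Cck window also holds the E-box CACGTG, found in 7.15% of all windows, and the Vip and Gad1 windows hold TATAAA or its reverse complement, found in 13.6%. CCAAT or its reverse complement occurred in the Gad2 and Npy windows and in 37.4% of all windows. GGGCGG or its reverse complement occurred in the Gad1 and Npy windows and in 35.7% of all windows. These matches describe letters and are not evidence of binding.

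Sst encodes somatostatin, the peptide of Martinotti and related dendrite-targeting cells, and lies on chromosome 16 at 23889573 to 23891342. It measured 1696, 1513 and 1239 in heterozygous brains and 1348, 1364 and 1507 in wild-type brains. Heterozygous brains held both the highest value and the lowest, and the wild-type brains lay inside that range. The means of 1482 ± 230.0 and 1406 ± 87.5 gave a log2 difference of 0.065 (SE 0.11, 95% interval -0.18 to 0.31, limma adjusted p = 0.974), which was -0.036 without heterozygous 1.

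Npy encodes neuropeptide Y, made in many Sst cells and in neurogliaform cells, and lies on chromosome 6 at 49822710 to 49829507. It was the steadiest of the 9 genes, at 1234, 1338 and 1168 in heterozygous brains and 1167, 1284 and 1199 in wild-type brains. Its highest brain was 1.15 times its lowest. The log2 difference of 0.034 (SE 0.085, 95% interval -0.15 to 0.22, limma adjusted p = 0.981) became -0.0010 with median centring of the arrays and -0.018 without heterozygous 2.

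Vip encodes vasoactive intestinal peptide, which marks interneurons that mainly inhibit other interneurons, and lies on chromosome 10 at 5639193 to 5647617. It read 635, 481 and 454 in heterozygous brains and 591, 624 and 517 in wild-type brains. Heterozygous 1 was the highest brain of all and the other heterozygous brains were the lowest. The means of 523 ± 97.4 and 577 ± 55.1 gave a log2 difference of -0.15 (SE 0.13, 95% interval -0.43 to 0.13, limma adjusted p = 0.956). It was -0.29 without heterozygous 1 and -0.056 without heterozygous 3.

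Cck encodes cholecystokinin, the peptide of a class of basket cells that also carry the cannabinoid receptor, and lies on chromosome 9 at 121489824 to 121495694. It measured 1983, 2363 and 1556 in heterozygous brains and 1658, 1909 and 1617 in wild-type brains. The highest and the lowest brain were both heterozygous, and the former was 1.52 times the latter. The log2 difference of 0.17 (SE 0.14, 95% interval -0.13 to 0.47, limma adjusted p = 0.956) had an exact permutation p of 0.6. It moved with single brains, to 0.027 without heterozygous 2 and to 0.33 without heterozygous 3. With 3 against 3 brains, 0.1 is the smallest p that this permutation test can give, so it could not pass 0.05 for any gene.

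The intervals bound what these arrays leave possible on the log2(intensity + 16) scale. All 11 unadjusted 95% intervals lay inside a 1.5-fold change in either direction, against 75.9% of all tested probe sets. That share was not matched for signal and includes probe sets near the dim limit of 18.4. The contrast is therefore not read as a trait of the markers. The widest upper limit was a ratio of 1.38, for Cck, and the lowest lower limit was 0.729, at the dim Gad2 probe set 1421978_at. For Gad1 at 1416561_at the limits were 0.801 and 1.05, and for Slc32a1 0.757 and 1.05. Changes inside the interval of a probe set remain possible with 3 brains per genotype. The limits are not the smallest changes that could be detected.

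**Figure D2:**
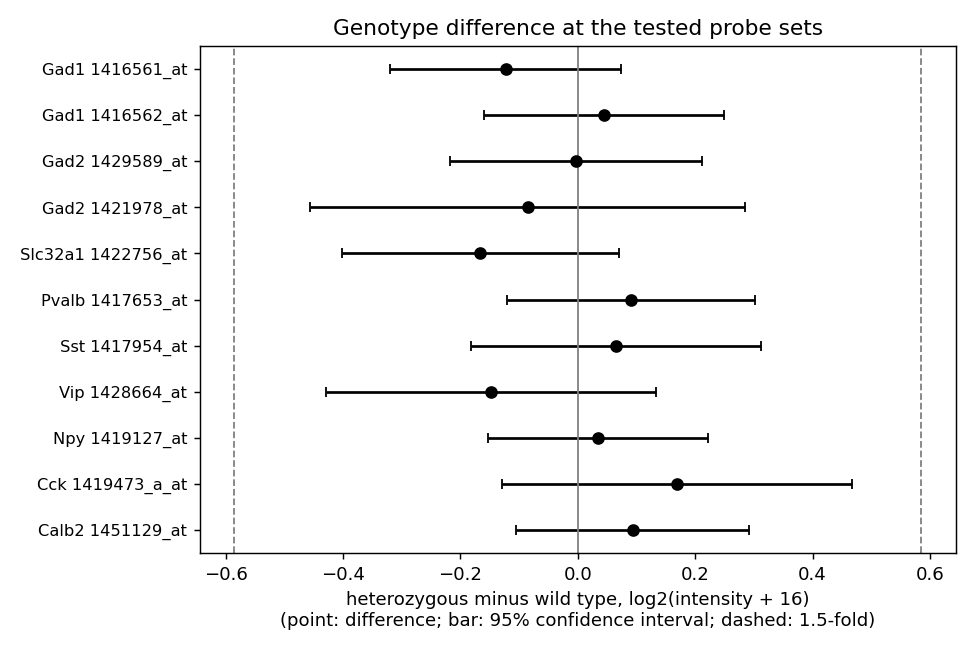
Genotype difference on the log2(intensity + 16) scale (horizontal axis) at the 11 tested probe sets, with unadjusted limma 95% confidence intervals. Each interval crosses 0 and lies inside the dashed lines, which mark a 1.5-fold change.

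Spread between brains of 1 genotype differed among the genes. The pooled within-genotype SD of the log2 values was 0.085 for Npy and 0.10 for Gad1 (1416561_at) and Calb2. Those of Npy, Calb2 and Gad1 stood at percentiles 12.3, 19.9 and 20.1 of all tested probe sets. It was 0.20 for Vip and 0.23 for Cck. Those of Vip and Cck stood at percentiles 63.2 and 72.3. The median over all tested probe sets was 0.17, close to the value for Sst.

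In no brain did all 9 markers lie on the same side of their means. The mean deviation of the 9 was largest in size in heterozygous 3 and heterozygous 1. Whether the markers moved together more than other genes was not tested. Heterozygous 3 held the lowest value of 4 of the 9 genes and had 1 gene above its own mean, Calb2, and the mean of the 9 deviations there was -0.11 on the log2 scale. In heterozygous 1, 7 genes were above their means and the mean deviation was 0.076, although Slc32a1 had its lowest value there. Heterozygous 2 had 4 genes above their means and a mean deviation of 0.041. The wild-type brains had 4, 6 and 4 genes above and mean deviations of -0.011, 0.0057 and 0.0031. Pituitary hormone transcripts also set brains apart. Prl read 3729.5 in heterozygous 3, 8306 in wild type 1 and no more than 456 elsewhere, and the summed signal of 6 pituitary markers ran from 185 to 6709 in heterozygous and from 791 to 21234 in wild-type brains. The part of pituitary tissue in the marker values was not tested beyond leaving out each brain. The median log2 difference of the 9 genes was 0.080 without heterozygous 3, 0.0048 without wild type 1 and -0.036 without heterozygous 1.

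**Figure D3:**
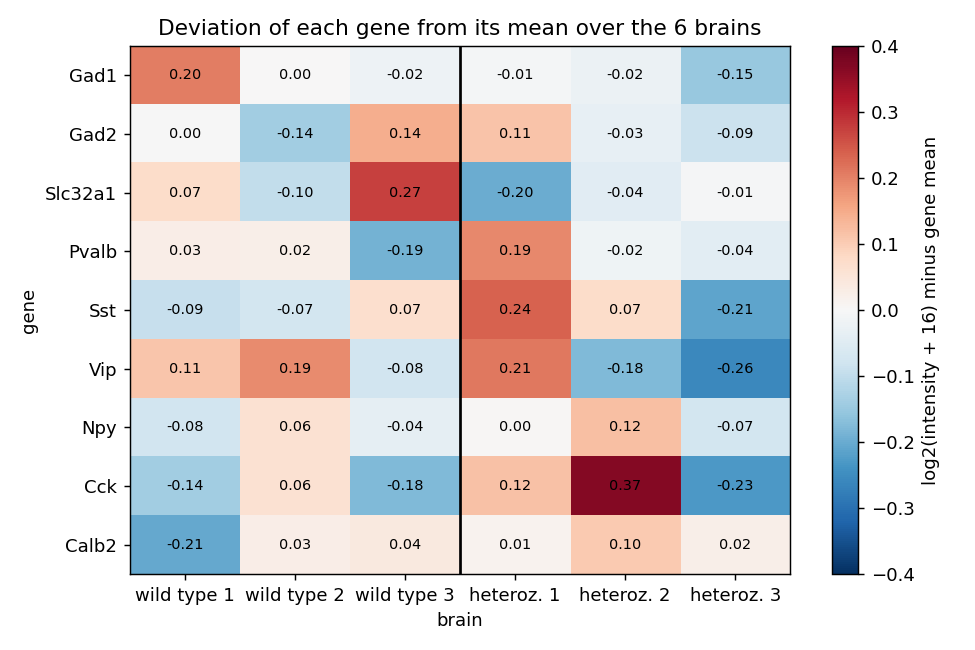
Log2(intensity + 16) of each of the 9 genes (rows) in each brain (columns) minus the gene's mean over the 6 brains. Heterozygous 3 is below the mean for 8 genes, heterozygous 1 for 2 and heterozygous 2 for 5.

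Whether a class marker changed by another amount than the genes that all GABAergic cells use was asked with differences within a brain. For each of Pvalb, Sst, Vip, Npy, Cck and Calb2, the mean log2 value of Gad1, Gad2 and Slc32a1 in the same brain was subtracted. As a deviation from its mean over the 6 brains, that reference stood at 0.091 and 0.13 in wild type 1 and wild type 3, and between -0.081 and -0.030 in the other brains. Relative to it, 5 of the 6 markers were higher in sign in heterozygous brains. Cck had the largest difference of the 6, 0.27, with 0.63, 0.89 and 0.33 in heterozygous brains and 0.25, 0.62 and 0.18 in wild-type brains. Calb2 differed by 0.19, with -0.21, -0.12 and -0.15 against -0.55, -0.15 and -0.35, so that wild type 2 lay among the heterozygous brains. Pvalb differed by 0.19, Sst by 0.16, Npy by 0.13 and Vip by -0.051. The genotypes overlapped for all 6, the two-sided exact permutation p ran from 0.2 to 0.9, and after Benjamini-Hochberg adjustment over the 6 markers the lowest exact permutation p was 0.36. The sign of Vip changed with Slc32a1 alone as the reference and without heterozygous 2, heterozygous 3 or wild type 2. The other 5 markers kept theirs in 14 of 14 alternatives, of which median centring and the replicate block cannot change such a difference. The same reference is subtracted from all 6 markers, so their signs are not independent. The second Gad1 probe set, which differed in sign from the first, was not tried in the reference.

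**Figure D4:**
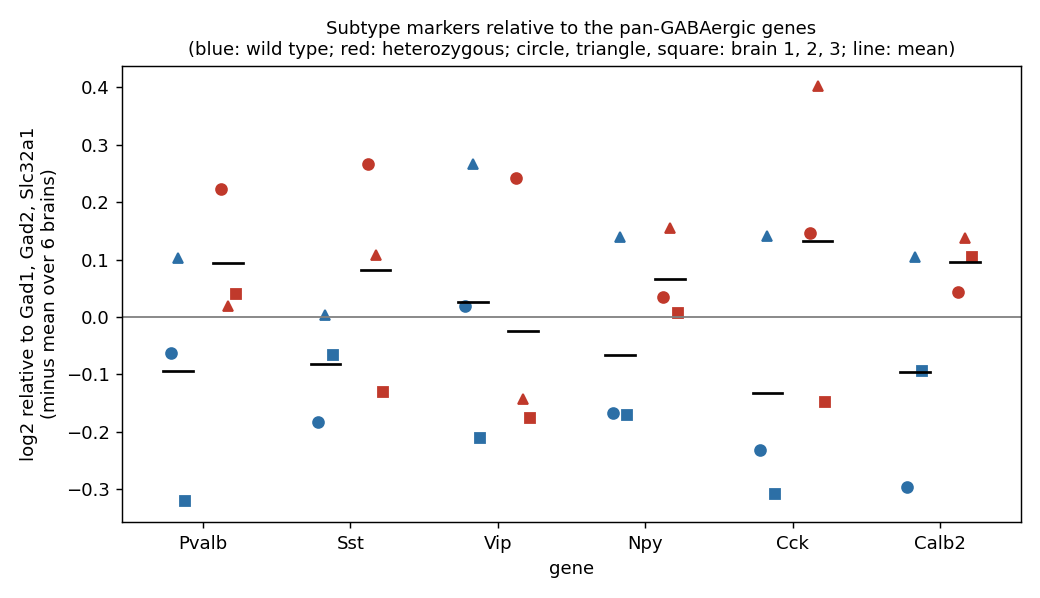
Log2 value of each class marker minus the mean log2 value of Gad1, Gad2 and Slc32a1 in the same brain, centred on the mean over the 6 brains (vertical axis). Wild-type (blue) and heterozygous (red) brains overlap for each marker, and the means differ by 0.27 for Cck and by -0.051 for Vip.

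Other genes of GABAergic cells and of their signals were read from 7 lists, which held 92 tested genes besides the 9 markers. No gene of these lists passed the adjusted threshold in either direction, where 0.00768% of all 13024 genes did. Unadjusted, 4 of the 92 had a limma p below 0.05, or 4.35%, against 4.41% of all genes, and all 4 were lower in heterozygous brains. They were Gabra2, Hapln1, Cnr1 and Dlx6, none of which is a called change.

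In GABA synthesis, transport and breakdown, 6 of 11 tested genes were higher in sign (median log2 difference 0.025). The 11 include Gad1, Gad2 and Slc32a1, all lower in sign, and without them 6 of 8 were higher (median 0.040). The amino acid transporter gene Slc38a2 lay at 0.050 (SE 0.086), Aldh5a1, which completes GABA breakdown, at 0.048 (SE 0.083), Slc38a1 at -0.048 (SE 0.092) and the glutamine synthetase gene Glul at -0.17 (SE 0.11). Slc38a1 and Glul each had a further tested probe set of opposite sign, at 0.24 (SE 0.11) and 0.071 (SE 0.083). Of 16 transcription factor genes of interneuron development, 12 were lower in sign (median -0.055). Dlx1 was at -0.15 (SE 0.11), and the dim genes Dlx6, Npas1 and Gsx2 at -0.47 (SE 0.21), 0.098 (SE 0.18) and 0.29 (SE 0.17). Dlx6 measured 12.6, 27.8 and 16.5 in heterozygous and 25.1, 36.0 and 34.6 in wild-type brains, values on both sides of the dim limit that overlapped between genotypes.

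Of 25 further class markers, 13 were higher and 12 lower in sign (median 0.0098). Cnr1, the cannabinoid receptor gene of Cck basket cells, read 1168, 1118 and 1164 in heterozygous brains and 1425, 1289.7 and 1228 in wild-type brains. All 3 heterozygous values were lower, by limma at -0.19 on the log2 scale (SE 0.084, adjusted p = 0.956), and the other tested Cnr1 probe set lay at -0.0088 (SE 0.16). Cort, the cortistatin gene, was at 0.46 (SE 0.22) from a dim wild-type mean of 24.9, Th at 0.14 (SE 0.13) and Crh, the corticotropin-releasing hormone gene, at -0.31 (SE 0.18).

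Receptors for the peptides had 6 of 10 genes lower in sign (median -0.077). The neuropeptide Y receptor gene Npy1r lay at 0.19 (SE 0.14), the cholecystokinin receptor gene Cckbr at 0.14 (SE 0.12), Adcyap1r1 at -0.16 (SE 0.12) and the dim Vipr1 at -0.46 (SE 0.33). Among 13 GABA receptor and scaffold genes, 10 were higher in sign (median 0.064). Gabra2, an alpha subunit of the GABA-A receptor, read 483, 535 and 394 in heterozygous brains and 709.7, 806 and 594 in wild-type brains at 1455444_at. The genotypes did not overlap there, and the log2 difference was -0.56 (SE 0.13, limma adjusted p = 0.956). Its other tested probe sets lay at -0.62 and -0.34, with unadjusted limma p of 0.000316 and 0.0528. Gabrg1 lay at 0.18 (SE 0.11) and Gabra3 at 0.15 (SE 0.12), but their other tested probe sets were opposite in sign, at -0.17 and -0.14. Gabra5 lay at -0.15 (SE 0.13).

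Peptide-processing genes had 6 of 11 higher in sign (median 0.021), with the secretory granule genes Scg3 at 0.10 (SE 0.075) and Scg5 at 0.12 (SE 0.096), and Vgf at -0.18 (SE 0.097). Pam, whose enzyme amidates peptides such as NPY, VIP and CCK, lay at -0.53 with an SE of 0.53, and its values spread from 119 in heterozygous 1 to 971 in heterozygous 2. Perineuronal net genes, whose products surround many Pvalb cells, had 6 of 9 higher in sign (median 0.0076). Hapln1, a link protein of the net, measured 61.0, 95.6 and 62.5 in heterozygous and 124, 98.9 and 96.1 in wild-type brains (log2 difference -0.47, SE 0.17, limma adjusted p = 0.956). Its other tested probe sets lay at -0.39, -0.15 and 0.22. The net proteoglycan genes Acan, Vcan and Bcan were at 0.26 (SE 0.18), 0.22 (SE 0.13) and -0.052 (SE 0.078), and the other tested Bcan probe set was at 0.066.

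**Figure D5:**
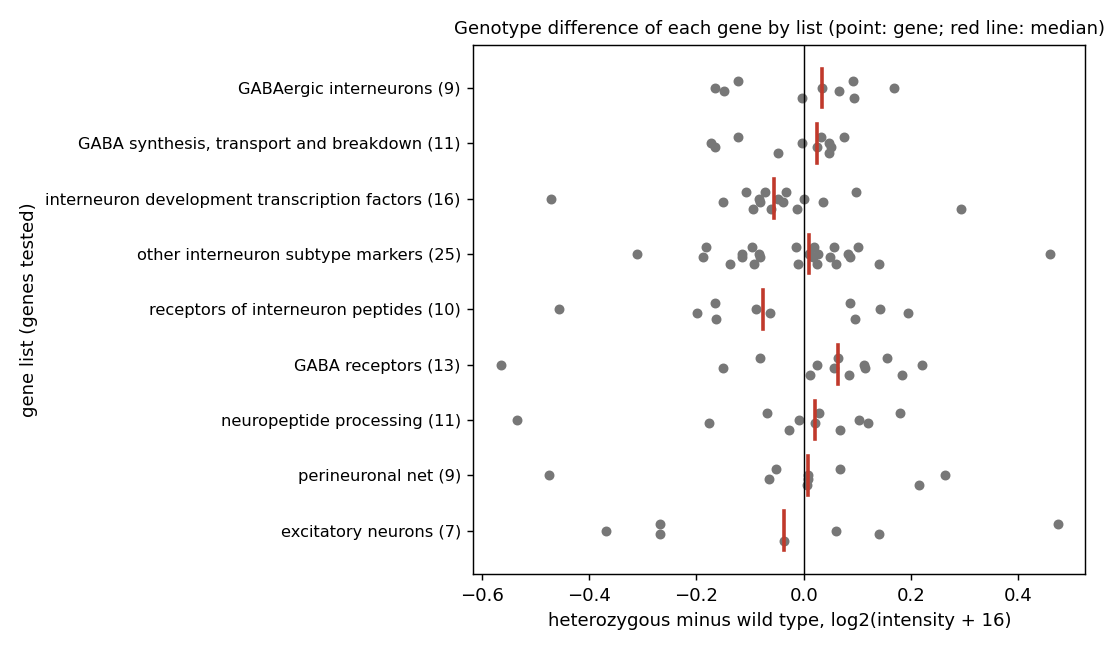
Genotype difference on the log2(intensity + 16) scale (horizontal axis) of each tested gene, by list, with the list's median in red. The list of GABA synthesis includes Gad1, Gad2 and Slc32a1. The medians of the 9 markers and of the 7 related lists lie between -0.077 and 0.064, and single genes of these reach -0.56 (Gabra2) and 0.46 (Cort). Excitatory neurons are also drawn, with a median of -0.036 and Camk2a at 0.47.

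Markers of other cells in whole brain gave the setting of these values. Of 7 tested markers of excitatory neurons, 4 had an unadjusted limma p below 0.05, 3 lower and 1 higher, against 4.41% of all genes, and none passed the adjusted threshold. Slc17a7, the vesicular glutamate transporter gene of the cortex, was at -0.27 (SE 0.086) and Slc17a6, that of thalamus and brainstem, at -0.036 (SE 0.11), with its other tested probe set at 0.021. The other 3 of the 4, named after their values were seen, were Nrgn at -0.37 (SE 0.087), Neurod6 at -0.27 (SE 0.11) and Camk2a at 0.47 (SE 0.12), whose other tested probe sets lay between -0.12 and 0.24. The summed signal of the 7 ran from 5136 to 6085 in heterozygous and from 5260.5 to 5576 in wild-type brains, so the genotypes overlapped. Of the markers of GABAergic cells that are not interneurons, striatal Drd1 and Drd2 lay at 0.097 (SE 0.16) and 0.20 (SE 0.13), and Purkinje cell Pcp2 and Car8 at 0.051 (SE 0.092) and -0.0096 (SE 0.097). By list, 4 of 7 tested striatal markers were higher and 3 lower in sign. Of 9 tested cerebellar neuron markers, 5 were higher and 4 lower. Other tested probe sets lay at -0.067 for Drd1 and at 0.0035 and -0.35 for Car8. The part of these cells in the marker values was not tested.

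The 5 genes whose values followed the mean profile of the 9 markers most closely over the 6 brains were 2900055J20Rik, Plxdc1, Avpi1, Khdrbs3 and Asic1. Their Pearson r lay between 0.987 and 0.996, the highest of 13015 genes ranked, over 6 points that share the arrays, and it is given as a description only.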

How the data were processed

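RNA of 6 whole brains, 1 Affymetrix array each, was labelled from an oligo(dT) primer, per the labels' protocols. The authors' deposited values are linear probe-set intensities. The summarising software is not stated in the sources used here. Without the outer 2% at each end, values averaged 150.0 on each array, so they had been scaled.

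Probe sets were named by platform annotation, with symbols updated through a RefSeq table (GRCm38.p6; 34741 matched of 34945 with 1 gene). Controls (64) and dim probe sets (mean log2 value at or below the 40th percentile, 18015) were left out. Genotypes were compared on log2(intensity + 16) with limma 3.58.1 (R 4.3.3), lmFit and eBayes with trend, no covariate, two-sided, Benjamini-Hochberg adjusted over 27022 probe sets. A fold on this scale is understated for dim probe sets. Genes were represented by their brightest tested probe set. The limma comparison was tried on simulated data with independent normal noise, and the permutation test on made-up values. No other step was tried in this way. Of each related list, the genes named are the 2 highest and 2 lowest by moderated t. Members and lists were chosen with earlier results of these data known. Alternatives covered normalization, pseudocount, filter, eBayes, block and single arrays. The number of arrays limits the precision.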

Additional observations from a re-analysis of the deposited data

How the results depend on the processing

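None of the 11 tested marker probe sets was called in any of 15 alternatives, and the lowest limma adjusted p among them was 0.727. Signs near 0 were not fixed. Gad2 (1429589_at) was 0.0019 with quantile normalization and -0.073 to 0.068 with single brains left out, and Npy was -0.0010 with median centring and -0.018 to 0.080 with single brains left out. With single brains left out, Gad1 at 1416562_at ran from -0.031 to 0.11, Sst from -0.036 to 0.19 and Gad2 at 1421978_at from -0.23 to 0.019. The other 6 probe sets kept their sign in all 15. The dim filters, the eBayes settings and the replicate block cannot change a log2 difference, so only the other alternatives could have changed a sign. Gad1 at 1416561_at ran from -0.16 to -0.052, Pvalb from 0.017 to 0.13 and Calb2 from 0.015 to 0.14 with single brains left out. Relative to the pan-GABAergic genes, Vip was 0.018 with Slc32a1 alone as the reference and -0.18 to 0.070 with single brains left out. The median of the 9 genes ran from -0.036 to 0.080.

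Over all probe sets, 4 were called (Mtmr7, Prune2, Yaf2 and 1 not named here, none of them a marker), against 1 without the dim filter, 1 with eBayes without trend, and 1 to 14 with single brains left out (14 without heterozygous 1, 1 without heterozygous 2, 2 without heterozygous 3 and 2 without wild type 3). Same-numbered brains are not known to be paired. Their deviations correlated at 0.082, 0.20 and -0.018. The replicate block gave 5 calls over all probe sets and 0 among the markers. In this balanced design it cannot change a log2 difference, so the median of the 9 genes was 0.034 by construction. Signal limits the 3 dim Slc32a1 probe sets, which gave no test.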
